A study of Mus musculus with 18 samples.

Results

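The genes described are 10 transcription factors that set the effector, memory and helper fates of T cells, *Tbx21*, *Eomes*, *Prdm1*, *Bcl6*, *Id2*, *Id3*, *Runx3*, *Zeb2*, *Gata3* and *Irf4*. They were chosen by name, with earlier results of these data known, as 10 of the 37236 genes of the table. All 10 were among the 11992 genes tested, for which a mean of 10 normalized counts over the samples was the minimum. RNA was sequenced from CD3+ tumor-infiltrating T cells of mice bearing B16-OVA tumors, a mouse melanoma line that carries ovalbumin as its antigen. Mice that lack the orphan nuclear receptor NR2F6 in the whole body (*Nr2f6*-/-, back-crossed to C57BL/6) and wild-type mice (*Nr2f6*+/+), at 8 to 12 weeks of age, received 500000 tumor cells under the skin. From d3 they were given 0.5 mg of either an antibody that blocks PD-L1 (αPD-L1) or its isotype control IgG2b, 2 times per week, and tumors were taken at d14. The 18 samples comprise 3 of each genotype given IgG2b and 6 of each genotype given αPD-L1. T cells were enriched with CD4 and CD8 beads, combined and then sorted by CD3, and each value averages over CD4+ and CD8+ T cells, and for no gene can fewer cells of a type and less RNA per cell be told apart. The loss of NR2F6 is not restricted to T cells, so the tumor's other host cells lack it too.

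The factors act largely as opposing pairs. T-bet (*Tbx21*) and EOMES drive Th1 and cytotoxic programs, GATA3 drives Th2 cells, and BLIMP-1 (*Prdm1*) and BCL6 repress each other between effector and follicular helper or memory fates. ID2 and ID3 are inhibitors that bind E proteins and keep them from DNA, ID2 being tied to effector cells and ID3 to memory and follicular helper cells. RUNX3 maintains the CD8+ lineage and tissue residence, ZEB2 acts below T-bet in terminal effector cells, and IRF4 is induced by T cell receptor signals according to their strength.

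The value of a gene in a sample is a normalized count, its reads divided by a factor for that sample. The samples held between 12473391 and 18609482 reads on genes, with a median of 16554699. *Nr2f6* had 0 reads in all 9 *Nr2f6*-/- samples, for which the floor of 3 reads lies between 2.60 and 3.64 normalized counts, and 20.2 to 201 normalized counts in the *Nr2f6*+/+ samples. By their library numbers the samples form a first set, 28 to 39, made up of replicates 1 to 3 of every group, and a second set, 43 to 48, in which αPD-L1 replicates 4 to 6 of each genotype are the only members. All 11 T cell markers were detected in each group, and their summed level was 48361 to 56410 in *Nr2f6*+/+ IgG2b, 51667 to 56814 in *Nr2f6*-/- IgG2b, 48097 to 75946 in *Nr2f6*+/+ αPD-L1 and 64430 to 77102 in *Nr2f6*-/- αPD-L1. The sum over 14 macrophage and monocyte markers, all of them detected in each group, was 16369 to 20855, 9860 to 13368, 1677 to 6815 and 929 to 2626 in the same order, so that the IgG2b samples held more of this RNA than every αPD-L1 sample, and its part in the differences below was not tested. The log2 ratio of *Cd8a* to *Cd4* overlapped between all groups, with medians of 0.92, 1.20, 1.19 and 1.74.

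By the main test, limma on log2(normalized count + 1) with p-values adjusted over all 11992 genes, 0 of the 10 factors passed the threshold of 0.05 in any comparison. *Id2* was highest and *Id3* lowest in the *Nr2f6*-/- αPD-L1 group, by 0.87 and -1.44 on the log2 scale against *Nr2f6*+/+ IgG2b. *Id2* in that contrast had the smallest adjusted p of all members and contrasts (limma, adjusted p = 0.0718). The 10 factors are plotted sample by sample.

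**Figure D1:**
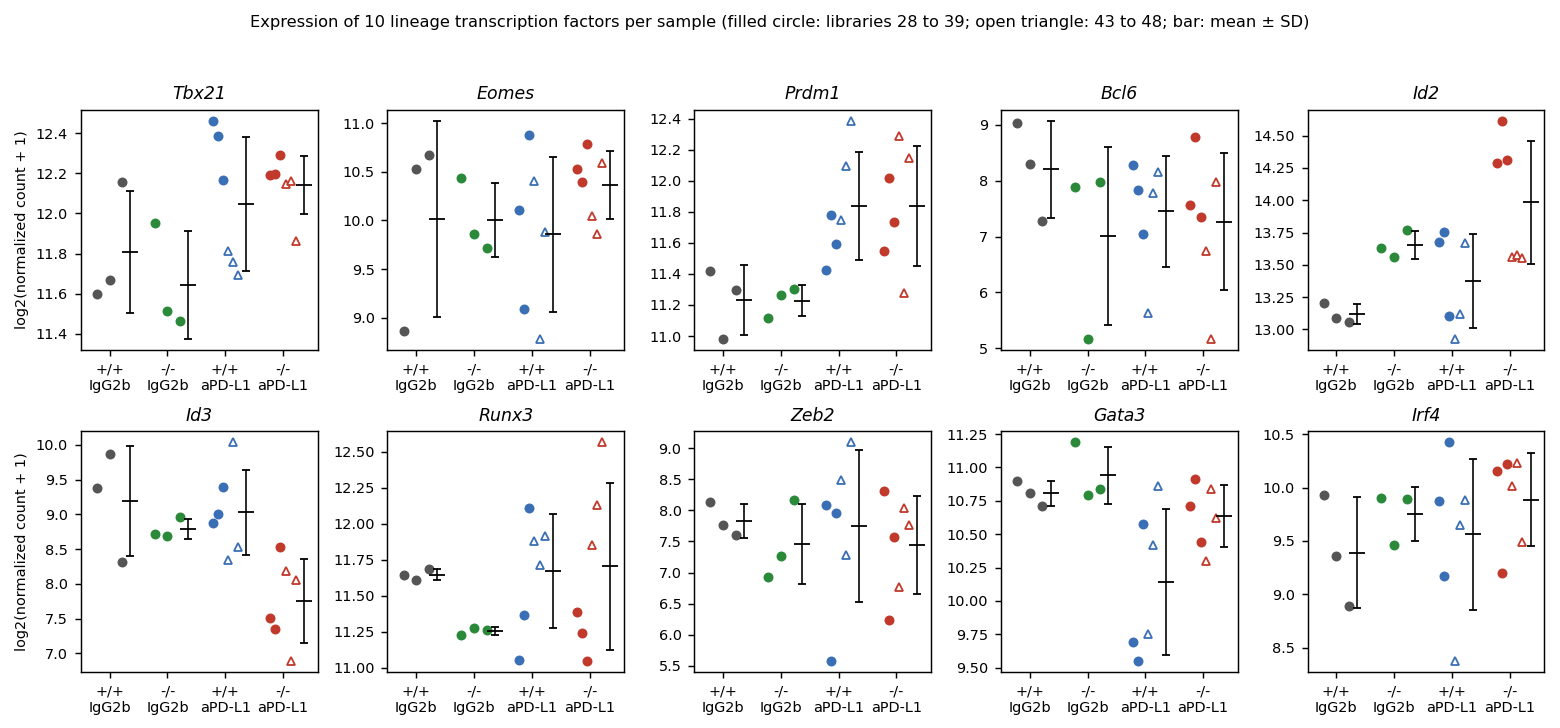
Level of each of the 10 factors, as log2(normalized count + 1) on the y axis, in every sample of the 4 groups on the x axis. Filled circles are libraries 28 to 39, open triangles are libraries 43 to 48, and the black bar is the mean ± SD of the group. The 3 first-set *Id2* points of *Nr2f6*-/- αPD-L1 lie above all other samples, and *Runx3* of the same group divides by library set in the other direction.

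*Id2* lies on chromosome 12, from 25093799 to 25096092 on the minus strand in GRCm38.p6. Its promoter is shown because ID2 acts on the factors that bind E-boxes, the motif CANNTG, and because *Id2* had the smallest adjusted p. The RefSeq bases that precede the annotated transcripts, chr12:25096254-25096342 on the minus strand, read as follows, with the E-box in capitals.
Id2 promoter: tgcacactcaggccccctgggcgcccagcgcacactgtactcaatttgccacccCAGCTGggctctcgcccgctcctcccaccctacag
The E-box begins 196 bases before the RefSeq start of the gene. Searched on both strands over the 250 bases before each RefSeq start, CANNTG stood in 66.2% of 32851 promoters of the genome and in 5 of the 15 promoters of the 10 factors, those of *Bcl6*, *Id2*, *Prdm1*, *Runx3* and *Tbx21*. The nuclear receptor half-site AGGTCA stood in 14% of all promoters and in 0 of these 15, which says only that these letters are absent from the windows. The last letters of the half-site can also begin an E-box, and a match is a description of sequence, not of binding.

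With IgG2b, *Id2* had 9445, 8690 and 8545 normalized counts in the *Nr2f6*+/+ samples and 12676, 12055 and 13954 in the *Nr2f6*-/- samples. The groups did not overlap, and the *Nr2f6*-/- samples were higher by 0.53 ± 0.26 (log2, SE) with an adjusted p of 0.920 (limma). With αPD-L1, the lowest, median and highest values were 7783, 10953 and 13846 in *Nr2f6*+/+ and 12041, 16128 and 25127 in *Nr2f6*-/-. The groups met only between 12041 and 13846, the difference was 0.61 ± 0.18 (log2, SE), and its interval at 95% ran from 0.23 to 0.99 (limma, adjusted p = 0.220). DESeq2 on the recovered reads put *Id2* past the threshold here (DESeq2, adjusted p = 0.0414), whereas edgeR did not (edgeR, adjusted p = 0.214). αPD-L1 against IgG2b gave a difference of 0.26 ± 0.22 (log2, SE) in *Nr2f6*+/+ and of 0.33 ± 0.22 in *Nr2f6*-/-, neither beyond the spread (limma, adjusted p = 0.869 and 0.689).

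*Id2* in *Nr2f6*-/- αPD-L1 depended on the library set. The first-set samples had 20021, 25127 and 20307 normalized counts and the second-set samples 12052, 12236 and 12041, a gap with no overlap. In *Nr2f6*+/+ αPD-L1 the sets overlapped, at 8783 to 13846 and 7783 to 13015. Within the first set the genotypes differed by 0.89 under αPD-L1 (log2, limma, adjusted p = 0.0539), and within the second by 0.33 (log2, limma, adjusted p = 0.781). Set against *Nr2f6*+/+ IgG2b, the *Nr2f6*-/- αPD-L1 samples were higher by 0.87 ± 0.22 (log2, SE) and did not overlap it, and *Id2* passed the threshold once the library set was a covariate (1.15, limma, adjusted p = 0.00260) or the first set alone was used (1.29, limma, adjusted p = 0.00818). At these settings 0.734% and 0.417% of all genes passed. Scaled to the sum of the 11 T cell markers, a setting chosen after the values were seen, the same difference was 0.46 (log2, limma, adjusted p = 0.352).

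*Id3* lies on chromosome 4, from 136143822 to 136145392. It had 664, 933 and 318 normalized counts in *Nr2f6*+/+ IgG2b and 420.5, 413 and 495 in *Nr2f6*-/- IgG2b. The wild-type samples lay on either side of the *Nr2f6*-/- samples, and the difference of -0.40 ± 0.54 (log2, SE) was within the spread (limma, adjusted p = 0.992). With αPD-L1, the lowest, median and highest values were 325, 490 and 1048 in *Nr2f6*+/+ and 118, 223 and 368 in *Nr2f6*-/-. Only 1 of the 6 *Nr2f6*-/- samples lay above the lowest wild-type sample, the difference was -1.28 ± 0.38 (log2, SE) with a 95% interval from -2.06 to -0.50, and the adjusted p was 0.217 (limma), 0.212 (edgeR) and 0.0405 (DESeq2). The genotype difference was -1.30 within the first library set and -1.26 within the second (log2), so that unlike *Id2* it was of like size in each. αPD-L1 against IgG2b gave -1.04 ± 0.47 in *Nr2f6*-/- (log2, SE), where the groups did not overlap (limma, adjusted p = 0.458), and -0.16 ± 0.47 in *Nr2f6*+/+ (limma, adjusted p = 0.980), which became 0.18 without *Nr2f6*+/+ IgG2b replicate 2. The αPD-L1 effects of the genotypes differed by -0.88 ± 0.66 (log2, SE; limma, adjusted p = 0.980), so no difference between them was shown.

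The ratio of *Id2* to *Id3* within a sample sets the opposing inhibitors against each other. Since 3′ counts of separate genes are not on a common scale, only its differences between samples can be read. Its log2 value was 3.83, 3.22 and 4.74 in *Nr2f6*+/+ IgG2b and 4.91, 4.86 and 4.81 in *Nr2f6*-/- IgG2b. With αPD-L1 it ran from 3.08 over a median of 4.67 to 5.14 in *Nr2f6*+/+, and from 5.37 over 6.23 to 7.27 in *Nr2f6*-/-. All 6 *Nr2f6*-/- αPD-L1 samples thus lay above every one of the other 12 samples, although *Id2* and *Id3* taken singly overlapped between the genotypes under αPD-L1. The mean log2 ratio of *Nr2f6*-/- αPD-L1 exceeded that of *Nr2f6*+/+ αPD-L1 by 1.89, that of *Nr2f6*-/- IgG2b by 1.37 and that of *Nr2f6*+/+ IgG2b by 2.30, beside a pooled SD of 0.72 between samples of a group, and these contrasts share samples. The genotypes differed by 0.93 with IgG2b, again without overlap, and αPD-L1 differed from IgG2b by 0.42 in *Nr2f6*+/+, with overlap. By library set, the αPD-L1 ratios of *Nr2f6*-/- and *Nr2f6*+/+ were 5.78 to 7.27 and 3.71 to 4.80 in the first. In the second they were 5.37 to 6.69 and 3.08 to 5.14. Groups that do not overlap as a whole cannot overlap within a set, so these ranges add no support. No test was run on the ratios, and the share of all gene pairs that do not overlap was not computed. Of single genes, 14.2% did not overlap between genotypes with IgG2b and 0.592% with αPD-L1. The pair also joins the 2 factors that lay farthest from 0, in opposite directions, between genotypes with αPD-L1.

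**Figure D2:**
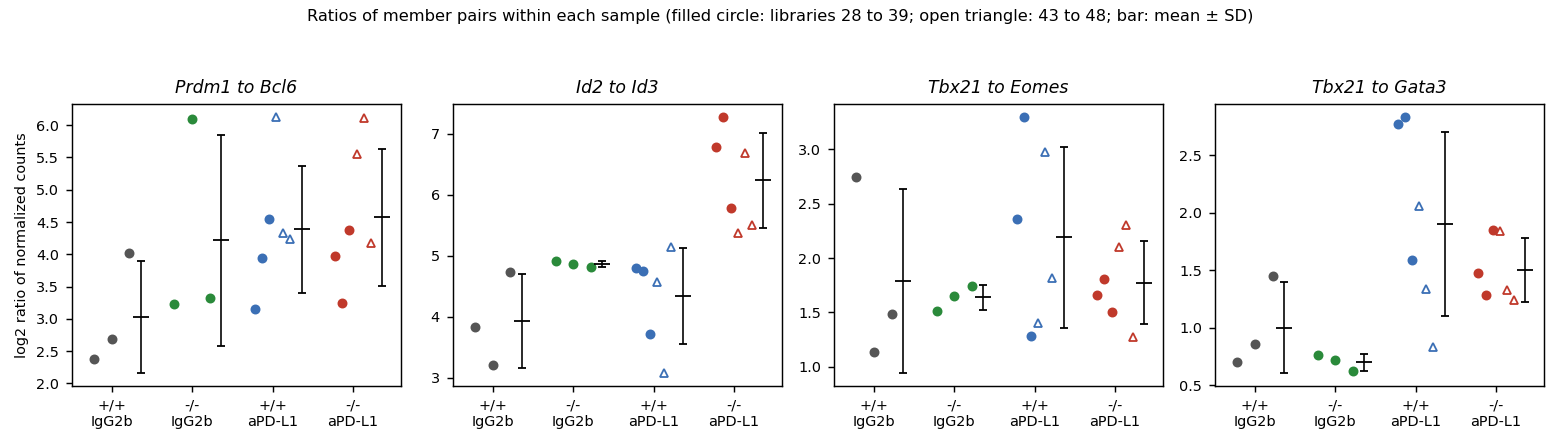
Log2 ratio of the normalized counts of 4 pairs of factors (y axis) in every sample of the 4 groups (x axis), with filled circles for libraries 28 to 39, open triangles for 43 to 48 and the black bar for the mean ± SD. For *Id2* to *Id3* the 6 *Nr2f6*-/- αPD-L1 samples, from 5.37 to 7.27, lie above the other 12 samples.

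Of the other pairs, *Tbx21* to *Gata3*, the Th1 factor against the Th2 factor, had log2 ratios of 0.70, 0.86 and 1.45 in *Nr2f6*+/+ IgG2b and of 0.76, 0.72 and 0.62 in *Nr2f6*-/- IgG2b. With αPD-L1 they ran from 0.83 over 1.82 to 2.83 in *Nr2f6*+/+ and from 1.24 over 1.40 to 1.85 in *Nr2f6*-/-. In *Nr2f6*-/- mice the αPD-L1 samples all lay above the IgG2b samples, by 0.80 on average, whereas the wild-type groups, 0.90 apart on average, overlapped. The pooled SD was 0.53. Of single genes, 5.12% did not overlap between αPD-L1 and IgG2b in *Nr2f6*-/-, and the share of gene pairs was not computed. *Prdm1* to *Bcl6* and *Tbx21* to *Eomes* overlapped between groups in all 5 contrasts, with mean differences between 0.18 and 1.54 for the first and between -0.42 and 0.40 for the second, and pooled SDs of 1.11 and 0.63.

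*Tbx21*, which encodes T-bet, lies on chromosome 11, from 97098007 to 97115331. It had 3103, 3251 and 4570 normalized counts in *Nr2f6*+/+ IgG2b and 3957, 2926 and 2820 in *Nr2f6*-/- IgG2b. With αPD-L1 the lowest, median and highest values were 3312, 4097 and 5644 in *Nr2f6*+/+ and 3722, 4626 and 5009 in *Nr2f6*-/-. Most αPD-L1 samples were higher than most IgG2b samples, with overlap in each genotype. In the first library set, the only one with IgG2b samples, αPD-L1 samples had 4594 to 5644 in *Nr2f6*+/+ and 4671 to 5009 in *Nr2f6*-/-. These lay above every IgG2b sample, and the share of all genes that separate so within the first set was not computed. The second-set αPD-L1 samples had 3312 to 3599 and 3722 to 4581. αPD-L1 against IgG2b gave 0.50 ± 0.20 (log2, SE) in *Nr2f6*-/- (limma, unadjusted p = 0.0212, adjusted p = 0.397) and 0.24 ± 0.20 in *Nr2f6*+/+ (limma, adjusted p = 0.869). Under αPD-L1 the genotypes differed by 0.10 ± 0.17 (log2, SE), with a 95% interval from -0.25 to 0.44, and the sign turned in the first library set alone (-0.11) and on scaling to the T cell markers (-0.07). On that scaling the αPD-L1 difference in *Nr2f6*+/+ was also near 0, at -0.01, and that of *Nr2f6*-/- αPD-L1 against *Nr2f6*+/+ IgG2b was -0.07 in place of 0.33. Over the alternatives, the αPD-L1 difference in *Nr2f6*+/+ lay between -0.01 and 0.53.

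*Eomes*, the second T-box factor, lies on chromosome 9, from 118478186 to 118486132. It had 463, 1475 and 1633 normalized counts in *Nr2f6*+/+ IgG2b and 1386, 929 and 840 in *Nr2f6*-/- IgG2b. Under αPD-L1 it had 439, 1021 and 1883 (lowest, median, highest) in *Nr2f6*+/+ and 930, 1412 and 1770 in *Nr2f6*-/-. The wild-type samples spread widely, with a coefficient of variation of 53.3% and 51.3% in their 2 groups against 23.2% in *Nr2f6*-/- αPD-L1. The difference between genotypes under αPD-L1 was 0.51 ± 0.32 (log2, SE; limma, adjusted p = 0.639), and that between αPD-L1 and IgG2b in *Nr2f6*-/- 0.36 ± 0.40 (limma, adjusted p = 0.831).

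*Prdm1*, which encodes BLIMP-1, lies on chromosome 10, from 44437174 to 44528558. It had 2731, 2020 and 2517 normalized counts in *Nr2f6*+/+ IgG2b, against 2744, 3477 and 5358 (lowest, median, highest) in *Nr2f6*+/+ αPD-L1. In *Nr2f6*-/- it had 2221, 2460 and 2525 with IgG2b and 2485, 3781 and 5007 with αPD-L1. The wild-type groups did not overlap, and in *Nr2f6*-/- a single αPD-L1 sample fell among the IgG2b samples. The difference was 0.61 in each genotype (log2, SE 0.23 in both), with 95% intervals from 0.14 to 1.07 and from 0.14 to 1.08, unadjusted p of 0.0130 and 0.0128, and adjusted p of 0.525 and 0.333 (limma). The αPD-L1 mean in *Nr2f6*+/+ was 3116 in the first library set and 4391 in the second, which has no IgG2b sample. In *Nr2f6*-/- these means were 3517 and 4009, and the IgG2b means were 2423 in *Nr2f6*+/+ and 2402 in *Nr2f6*-/-. The genotypes differed by less than 0.01 on the log2 scale under αPD-L1, with a 95% interval from -0.38 to 0.38, and the sign of this difference turned with the scaling and the library set. Against *Nr2f6*+/+ IgG2b, the *Nr2f6*-/- αPD-L1 samples were higher by 0.60 ± 0.23 (log2, SE; limma, adjusted p = 0.317). Scaling to the T cell markers moved the αPD-L1 differences to 0.36 and 0.27.

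*Bcl6*, the opposing repressor, lies on chromosome 16, from 23965050 to 23988866. It had 522, 313 and 155 normalized counts in *Nr2f6*+/+ IgG2b and 236, 34.9 and 252 in *Nr2f6*-/- IgG2b. Under αPD-L1 it had 48.3, 223 and 309 (lowest, median, highest) in *Nr2f6*+/+ and 35.1, 176 and 438 in *Nr2f6*-/-. Every group overlapped every other. In every group but *Nr2f6*+/+ IgG2b, a single sample with under 50 normalized counts lowered the mean. The genotypes differed by -1.19 ± 0.93 with IgG2b (log2, SE; limma, adjusted p = 0.989), a value that lay between -1.68 and -0.27 as single samples were left out. The αPD-L1 difference in *Nr2f6*+/+ was -0.75 ± 0.81 and *Nr2f6*-/- αPD-L1 against *Nr2f6*+/+ IgG2b gave -0.94 ± 0.81 (log2, SE; limma, adjusted p = 0.898 and 0.838). The αPD-L1 effects differed between the genotypes by 1.01 ± 1.14 (log2, SE; limma, adjusted p = 0.986).

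*Runx3* lies on chromosome 4, from 135120645 to 135177990. With IgG2b it had 3199, 3128 and 3299 normalized counts in *Nr2f6*+/+ and 2393, 2482 and 2452 in *Nr2f6*-/-, groups that were tight and did not overlap. The difference was -0.39 ± 0.31 (log2, SE; limma, adjusted p = 0.989), where the SE comes from 1 estimate of the spread over all 4 groups. The coefficient of variation was 2.68% and 1.85% in the IgG2b groups and 25.2% and 42.0% in the αPD-L1 groups. Fitted on the 6 IgG2b samples alone, the same difference had an SE of 0.13 and an adjusted p of 0.487 (limma). With αPD-L1 it had 2122, 3569 and 4413 (lowest, median, highest) in *Nr2f6*+/+ and 2118, 3189 and 6065 in *Nr2f6*-/-. In *Nr2f6*-/- αPD-L1 the first library set had 2673, 2425 and 2118 and the second 3705, 4481 and 6065, again with a gap. αPD-L1 against IgG2b in *Nr2f6*-/- gave 0.45 ± 0.26 (log2, SE; limma, adjusted p = 0.614), and -0.03 in the first set alone.

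*Zeb2*, whose product promotes terminal effector differentiation, lies on chromosome 2, from 44983512 to 45117442. It had 278, 216 and 193 normalized counts in *Nr2f6*+/+ IgG2b and 121, 153 and 287 in *Nr2f6*-/- IgG2b. The αPD-L1 samples had 46.9, 259 and 546 (lowest, median, highest) in *Nr2f6*+/+ and 74.7, 202 and 316 in *Nr2f6*-/-. All groups overlapped, the genotypes differed by -0.37 ± 0.80 with IgG2b and by -0.30 ± 0.57 with αPD-L1 (log2, SE; limma, adjusted p = 1 and 0.900), and the last value was 0.16 in the first library set alone.

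*Gata3* lies on chromosome 2, from 9857078 to 9887953. With IgG2b it had 1905, 1794 and 1672 normalized counts in *Nr2f6*+/+ and 2333, 1778 and 1831 in *Nr2f6*-/-. With αPD-L1 it had 749, 1113 and 1861 (lowest, median, highest) in *Nr2f6*+/+ and 1262, 1628 and 1924 in *Nr2f6*-/-. Of the 6 *Nr2f6*+/+ αPD-L1 samples 3 (826, 749 and 861 normalized counts) lay below every other sample of the study. Those of the first library set, the only one with IgG2b samples, had 749 to 1529, below every *Nr2f6*+/+ IgG2b sample. Those of the second set had 861 to 1861. The share of all genes that separate so within the first set was not computed. αPD-L1 against IgG2b gave -0.66 ± 0.27 in *Nr2f6*+/+ (log2, SE; limma, unadjusted p = 0.0202, adjusted p = 0.572) and -0.30 ± 0.27 in *Nr2f6*-/- (limma, adjusted p = 0.780). The genotypes differed by 0.50 ± 0.22 with αPD-L1 (log2, SE; limma, unadjusted p = 0.0320, adjusted p = 0.463) and by 0.14 ± 0.31 with IgG2b (limma, adjusted p = 1).

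*Irf4* lies on chromosome 13, from 30749233 to 30766981. It had 972, 654 and 473 normalized counts in *Nr2f6*+/+ IgG2b and 953, 704 and 950 in *Nr2f6*-/- IgG2b. The αPD-L1 samples had 331, 868 and 1373 (lowest, median, highest) in *Nr2f6*+/+ and 585, 1088 and 1197 in *Nr2f6*-/-. The groups overlapped throughout, and the differences were 0.36 ± 0.42 between genotypes with IgG2b, 0.32 ± 0.30 with αPD-L1 and 0.50 ± 0.37 for *Nr2f6*-/- αPD-L1 against *Nr2f6*+/+ IgG2b (log2, SE; limma, adjusted p = 0.991, 0.775 and 0.796).

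The comparisons can then be read over all 10 factors, beside the share of all tested genes that behaved the same way. The first asks what blockade of PD-L1 did in wild-type mice. By adjusted p, 0 of the 10 factors passed with limma, edgeR or DESeq2, where 0.242%, 0.158% and 0.801% of all genes did. By unadjusted p 2 passed, *Prdm1* and *Gata3*, beside 7.24% of all genes, and *Prdm1* was the 1 factor whose groups did not overlap, beside 4.54% of all genes. The median log2 difference of the factors was -0.03, against -0.10 over all genes.

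In *Nr2f6*-/- mice, αPD-L1 against IgG2b gave 0 of 10 factors by adjusted p with each of the tools, where 0.325% (limma), 0.3% (edgeR) and 1.96% (DESeq2) of all genes passed. By unadjusted p 3 passed, *Tbx21* and *Prdm1* with higher and *Id3* with lower levels, beside 9.7% of all genes. Only *Id3* did not overlap, beside 5.12% of all genes. The median log2 difference was 0.29 for the factors and -0.04 for all genes.

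Between genotypes with IgG2b, 0 of 10 factors passed by limma or edgeR, as for all genes (0% by each), and 0 by DESeq2, where 0.75% of all genes passed. *Id2* alone passed by unadjusted p, beside 5.35% of all genes, while *Id2* and *Runx3* did not overlap, beside 14.2% of all genes. The median log2 difference was -0.09 for the factors and -0.06 for all genes.

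Between genotypes with αPD-L1, the contrast with the most samples, 0 of 10 passed by limma or edgeR (0.175% and 0.183% of all genes) and 2 by DESeq2, *Id2* and *Id3* (1.57% of all genes). By unadjusted p 3 passed, *Id2*, *Id3* and *Gata3*, beside 9.73% of all genes, and 0 of 10 did not overlap, beside 0.592%. The median log2 difference was 0.06 for the factors and -0.00 for all genes.

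For loss of *Nr2f6* together with blockade, *Nr2f6*-/- αPD-L1 against *Nr2f6*+/+ IgG2b, 0 of 10 passed by limma or edgeR (0.617% and 0.342% of all genes) and 1 by DESeq2, *Id2* (1.51% of all genes; DESeq2, adjusted p = 0.00564). By unadjusted p 3 passed, *Id2*, *Id3* and *Prdm1*, beside 9.04% of all genes, and *Id2* alone did not overlap, beside 6.17%. The medians were 0.20 for the factors and -0.12 for all genes. The αPD-L1 effects differed between genotypes for 0 of 10 factors by limma, edgeR and DESeq2 (0%, 0% and 0.648% of all genes) and for 0 by unadjusted p (4.97%). Without *Nr2f6*+/+ αPD-L1 replicate 3, whose *Ccl5* level of 111441 was within the range of *Nr2f6*-/- αPD-L1, and *Nr2f6*-/- αPD-L1 replicate 4, again 0 of 10 factors passed by limma in each contrast, with *Id2* at 0.95 in the last of them (log2, limma, adjusted p = 0.0530).

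**Figure D3:**
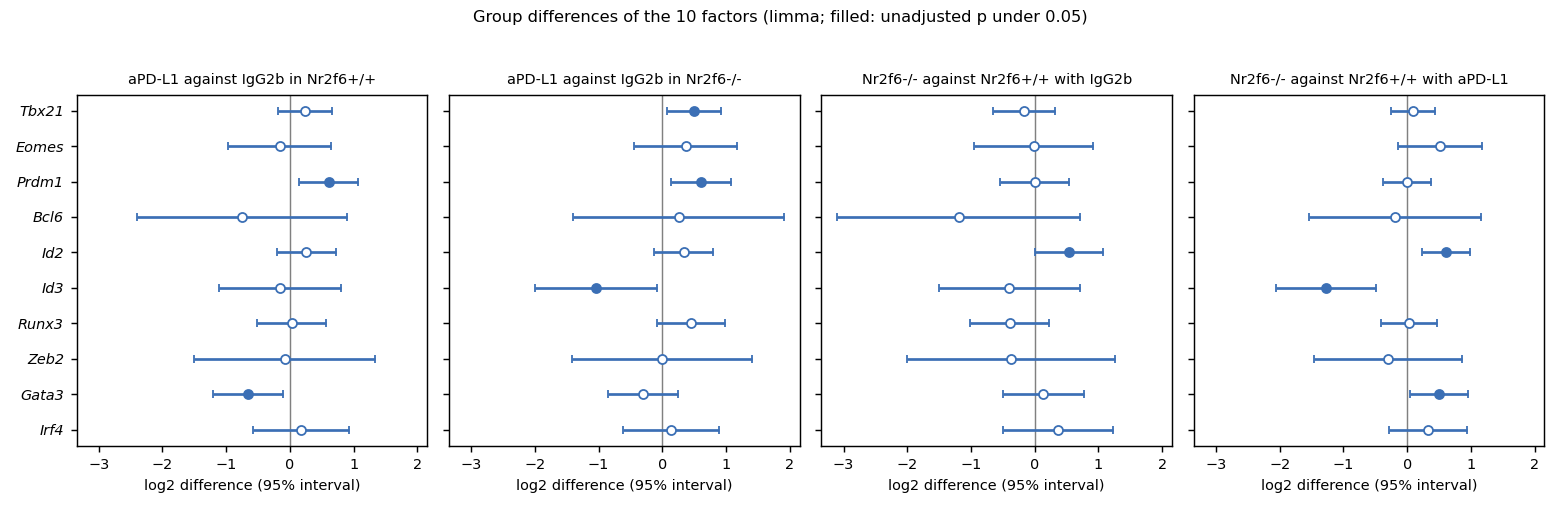
Log2 difference of each factor (x axis, with its 95% interval from limma as the bar) in 4 comparisons, with the 10 genes on the y axis. Filled points had an unadjusted p under 0.05 and open points did not. No factor passed by limma's adjusted p, and *Id3* and *Id2* lie farthest from 0, with intervals on opposite sides, between genotypes with αPD-L1.

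The library set was itself compared over the 12 αPD-L1 samples, with genotype in the model, a comparison chosen after the values were seen. By adjusted p, 0 of 10 factors differed, as for all genes (limma, 0%), and by unadjusted p 3 did, beside 9.31% of all genes. *Id2* was lower in the second set by -0.56 ± 0.17 (log2, SE) and *Tbx21* by -0.38 ± 0.14, whereas *Runx3* was higher by 0.64 ± 0.20 (limma, adjusted p = 0.279, 0.374 and 0.286). The sets of *Nr2f6*+/+ αPD-L1 did not overlap for *Tbx21*, beside 10.2% of all genes, and those of *Nr2f6*-/- αPD-L1 did not for *Tbx21*, *Id2* and *Runx3*, beside 15.9% of all genes. Since no IgG2b sample is in the second set, whether the sets differ as well without blockade cannot be told from these samples.

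Over the 18 samples, the 45 pairs of factors had Pearson's r between -0.55 and 0.38, with a median of 0.01, as a description only, since samples share group, library set and scaling. *Id2* and *Id3* had the lowest, -0.55 overall but -0.07 once each group's mean was taken out. *Id2* and *Runx3* followed at -0.50, and at -0.79 within groups, where *Id2* and *Runx3* divide in opposite directions by library set in *Nr2f6*-/- αPD-L1. *Tbx21* and *Gata3* had -0.47.

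**Figure D4:**
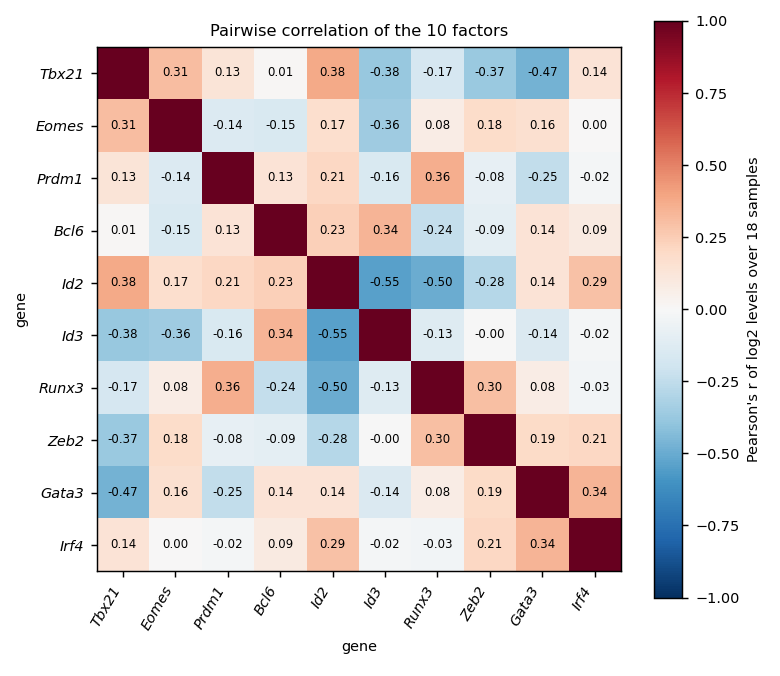
Pearson's r of the log2 levels of each pair of the 10 factors over the 18 samples, with genes on both axes and colour from blue (-1) to red (1). The most negative cell is *Id2* with *Id3* at -0.55 and the highest is *Tbx21* with *Id2* at 0.38.

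Among the 9638 genes averaging at least 50 normalized counts, those whose pattern over the 18 samples was most like that of a factor were *Gng2*, *Tmem134* and *Clta* for *Id2* (Pearson's r of 0.88, 0.87 and 0.84), *Hist1h2bk*, *Naca* and *Phgdh* for *Runx3* (0.87, 0.84 and 0.84) and *Lck*, *Spn* and *Akr1a1* for *Prdm1* (0.84, 0.84 and 0.78). For *Id3* they were *Ckb*, *Ms4a6c* and *P2rx7* (0.80, 0.78 and 0.78), for *Gata3* *Fscn1*, *Gatad2b* and *Spata2* (0.84, 0.83 and 0.82), and for *Zeb2* *Chd9*, *Ralgapa1* and *Tmem126b* (0.83, 0.76 and 0.75). *Eomes* was followed by *Cd55*, *Lars2* and *Zfp397* (0.82, 0.80 and 0.79), *Irf4* by *Ino80b*, *B3glct* and *Nkiras1* (0.80, 0.80 and 0.76), *Bcl6* by *Cd84*, *Tmem154* and *Tmub1* (0.79, 0.79 and 0.75), and *Tbx21* by *Arl6ip4*, *Zbed4* and *Atmin* (0.78, 0.77 and 0.73). No other member stood among these closest genes, and the values are the highest of many and carry no test.

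Partners of the factors and other lineage regulators formed a list of 31 genes, such as E proteins, the Runx family, BATF factors, BCL6 corepressors, *Foxp3*, *Tcf7* and *Lef1*, of which 28 were tested. *Tcf7*, which encodes TCF-1 of naive, memory and stem-like T cells, was the only one to pass by limma or by edgeR, and it fell. It had 3734, 5137 and 4134 normalized counts in *Nr2f6*+/+ IgG2b and 2173, 2200 and 2977 in *Nr2f6*-/- IgG2b. With αPD-L1 it had 1046, 1653 and 2350 (lowest, median, highest) in *Nr2f6*+/+ and 1214, 1589 and 1694 in *Nr2f6*-/-. The *Nr2f6*+/+ IgG2b samples were above all others. *Tcf7* fell with αPD-L1 in *Nr2f6*+/+, by -1.45 ± 0.26 (log2, SE; limma, adjusted p = 0.00912), and in *Nr2f6*-/- αPD-L1 against *Nr2f6*+/+ IgG2b, by -1.49 ± 0.26 (limma, adjusted p = 0.00618). The first call was lost without *Nr2f6*+/+ IgG2b replicate 2 (limma, adjusted p = 0.122) or replicate 3 (limma, adjusted p = 0.0786), and the second without replicate 2 (limma, adjusted p = 0.0761). DESeq2 also called *Tcf4*, an E protein, which was lower with αPD-L1 in *Nr2f6*-/- (DESeq2, adjusted p = 0.0194) and in *Nr2f6*-/- against *Nr2f6*+/+ with αPD-L1 (DESeq2, adjusted p = 0.00734), and *Bhlhe40*, which was lower with αPD-L1 in *Nr2f6*-/- (DESeq2, adjusted p = 0.0319). By unadjusted p of limma, 5, 5, 2, 7, 5 and 2 of the 28 partners passed in the 6 contrasts, the difference of the αPD-L1 effects being the last, beside 7.24%, 9.7%, 5.35%, 9.73%, 9.04% and 4.97% of all genes.

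Genes that the factors are known to regulate formed a list of 32, of which 29 were tested, among them *Ifng*, perforin and granzymes, *Klrg1*, *Il7r*, *Ccr7*, *Cd8a* and *Gata3*-linked Th2 genes. By limma and by edgeR only *Ccl5*, a T-bet-dependent chemokine of effector and memory cells, passed, and it rose. It had 36841, 50158 and 34623 normalized counts in *Nr2f6*+/+ IgG2b and 48717, 36092 and 58105 in *Nr2f6*-/- IgG2b. With αPD-L1 it had 25409, 41763 and 111441 (lowest, median, highest) in *Nr2f6*+/+ and 108648, 126870 and 157300 in *Nr2f6*-/-. All *Nr2f6*-/- αPD-L1 samples lay above every other sample but *Nr2f6*+/+ αPD-L1 replicate 3. *Ccl5* rose in *Nr2f6*-/- against *Nr2f6*+/+ with αPD-L1 by 1.51 ± 0.22 (log2, SE; limma, adjusted p = 0.000732), with αPD-L1 in *Nr2f6*-/- by 1.46 ± 0.27 (limma, adjusted p = 0.0109) and in *Nr2f6*-/- αPD-L1 against *Nr2f6*+/+ IgG2b by 1.69 ± 0.27 (limma, adjusted p = 0.00186). Within each library set alone, with fewer samples, the genotypes differed by 1.23 and 1.80 under αPD-L1 and neither passed (limma, adjusted p = 0.115 and 0.450), and the αPD-L1 call in *Nr2f6*-/- was lost in the first set alone (limma, adjusted p = 0.113) and without *Nr2f6*-/- IgG2b replicate 1 or 2 (limma, adjusted p = 0.0653 and 0.117). DESeq2 also called *Cd8b1*, a chain of the CD8 co-receptor, which was higher in *Nr2f6*-/- than in *Nr2f6*+/+ with αPD-L1 and in *Nr2f6*-/- αPD-L1 against *Nr2f6*+/+ IgG2b (DESeq2, adjusted p = 0.0414 in each), and *Ifng*, the Th1 cytokine, which was higher in the latter contrast (DESeq2, adjusted p = 0.0161). By unadjusted p of limma, 8, 10, 1, 7, 16 and 1 of the 29 targets passed in the same 6 contrasts, beside 7.24%, 9.7%, 5.35%, 9.73%, 9.04% and 4.97% of all genes. Of the 16 in *Nr2f6*-/- αPD-L1 against *Nr2f6*+/+ IgG2b, 8 were higher and 8 lower, and over the 29 the median log2 difference was -0.20, against -0.12 for all genes. All 4 cytotoxic targets of T-bet and EOMES, *Il2rb*, *Prf1*, *Gzmb* and *Gzma*, were among the 8 that were higher, with log2 differences of 0.48, 1.25, 0.81 and 1.62 (limma, adjusted p = 0.516, 0.309, 0.141 and 0.0778). Without *Nr2f6*+/+ IgG2b replicate 3, *Gzma* passed at 2.33 (log2, limma, adjusted p = 0.0129). With αPD-L1 against IgG2b in *Nr2f6*+/+, the same 4 targets gave 0.55, 1.58, 0.16 and 1.08 (log2). In *Nr2f6*-/- that comparison gave 0.53, 1.26, -0.12 and 0.95. Higher levels of *Il2rb*, *Prf1* and *Gzma* were thus not particular to the combination. The 8 that were lower included *Klrg1*, a marker of terminal effector cells, and the memory genes *Il7r* and *Ccr7*. Their log2 differences were -1.83, -1.37 and -1.32 (limma, adjusted p = 0.166, 0.122 and 0.287). *Klrg1* did not stand for its group. Of the 3 *Zeb2*-linked terminal effector genes among the targets, 2 had positive differences and 1 negative, with a median of 0.12 (log2). All 3 memory genes had negative differences.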

How the data were processed

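3′ libraries were made from 20 ng RNA of sorted CD3+ T cells. Reads were trimmed with Cutadapt and Trimmomatic, those under 22 nt removed, mapped to mm10 with STAR and then Bowtie2, and counted with HTSeq-count. Strand setting and annotation are not given in the sources used here, so overlapping and antisense genes are uncertain. The deposited values are a signal, which the authors made by dividing each gene's count by a size factor per sample. Whole reads were recovered for all values (tolerance 0.01).

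limma 3.58.1 in R 4.3.3 (eBayes with trend, 4 group means, 18 samples, two-sided, Benjamini-Hochberg) was run on log2(value + 1), which understates differences of low genes, and edgeR 4.0.16 and DESeq2 1.42.0 on the recovered reads. Of these tools only limma was checked on simulated data, for the genotype contrasts with IgG2b and with αPD-L1. No library-set difference was simulated. Labels do not name mice, and p-values measure the spread between these samples. Deviations of 21 same-numbered pairs correlated between -0.03 and 0.04, so no pairing by number was seen, which does not show that none exists. The members and lists were chosen with earlier results of these data known. Named are the 10 members, every list gene past the threshold by limma and, per member, the 3 most like genes; list genes called by DESeq2 alone and *Il2rb*, *Prf1*, *Gzmb*, *Gzma*, *Klrg1*, *Il7r* and *Ccr7* were named after their values were seen. Positions (10 of 10 members, by symbol) and promoters are from RefSeq GRCm38.p6, the assembly of mm10. Floors (3 reads) cover counting error only.

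Alternatives were pseudocounts of 0.5 and 10, no minimum mean or one of 50, quantile and same-total scaling, only the groups compared, library set as covariate or each set alone, the replicate block, edgeR, DESeq2, leaving out each replicate, leaving out together the αPD-L1 libraries *Nr2f6*+/+ replicate 3 and *Nr2f6*-/- replicate 4, which stood apart in an earlier principal component analysis, and scaling to T cell markers, added after the values were seen.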

Additional observations from a re-analysis of the deposited data

Results flagged for a closer look

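*Tbx21* in *Nr2f6*-/- αPD-L1 replicate 6, a library of the second set, lay at 11.86 on the log2 scale (3722 normalized counts), below the other 5 samples of its group at 12.15 to 12.29. The gap to its nearest neighbour was 0.661 of the group's range, past the critical value of 0.625 for 6 samples. Of 28 sets of 6 samples examined, 10 factors and 4 ratios in 2 groups, this was the 1 flag, and chance flags about 5% of sets.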

How the results depend on the processing

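The count of factors past the threshold in *Nr2f6*-/- αPD-L1 against *Nr2f6*+/+ IgG2b was 0 and became 1, *Id2* each time, with a pseudocount of 10, the library set as covariate, the replicate block, the first library set alone and DESeq2. Between genotypes with αPD-L1 it became 2 with DESeq2, *Id2* and *Id3*. In the other 4 comparisons it stayed at 0 under every alternative, and it stayed at 0 in all 6 whichever single replicate was left out. With the replicate block, *Id2* was higher by 1.15 on the log2 scale (limma, adjusted p = 0.00642), although no pairing by number was seen.

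Of the 48 log2 differences reported, 11 of 679 values under the 15 alternatives reversed. Scaling to the T cell markers, which moved the median of all genes to between -0.51 and -0.14 from between -0.12 and -0.00 in the 5 group comparisons, put *Id2* with αPD-L1 in *Nr2f6*-/- at -0.0020 and *Tbx21* at -0.0057 with αPD-L1 in *Nr2f6*+/+, -0.067 between genotypes with αPD-L1 and -0.073 in *Nr2f6*-/- αPD-L1 against *Nr2f6*+/+ IgG2b. The first library set alone put *Tbx21*, *Prdm1* and *Zeb2* between genotypes with αPD-L1 at -0.11, 0.17 and 0.16, and *Runx3* with αPD-L1 in *Nr2f6*-/- at -0.028. *Prdm1* between genotypes with αPD-L1 was 0.015 on scaling to the same total, 0.0068 with edgeR and 0.0041 with DESeq2. Leaving out single replicates moved that value between -0.092 and 0.110, and *Id3* with αPD-L1 in *Nr2f6*+/+ between -0.59 and 0.18. The causes were not tested.

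Each IgG2b group had 3 samples, and levels of *Bcl6* and *Zeb2* went down to 35 and 47 normalized counts. All differences in these 2 genes were within the spread, among them -1.19 ± 0.93 (log2, SE) for *Bcl6* between genotypes with IgG2b. Macrophage and monocyte RNA moved with the groups, and the second library set holds both genotypes but no IgG2b sample. The log2 ratio of *Cd8a* to *Cd4* overlapped between all groups, with medians from 0.92 to 1.74. None of these was separated from the group differences.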
